A study of Homo sapiens with 8 samples.

Results

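HMGN1, HMGN2, HMGB1, HMGB2 and HMGA1 encode high mobility group proteins, and their RNAs were examined as targets of TIA1 and RBFOX2. The genes were taken as fixed hg19 spans, given to the kilobase, and a peak belonged to a gene if it overlapped the span on the gene's strand. By this rule the 5 genes held 18 of 7442 deposited peaks, of which 16 were among the 3215 peaks of TIA1 and 2 among the 4227 peaks of RBFOX2. The genes were chosen by their peaks in these same lists, so positions, counts, log2 folds and −log10 p of the members are descriptions and carry no test.

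The data came from eCLIP, in which protein is crosslinked to RNA by ultraviolet light, immunoprecipitated and the attached RNA sequenced. The series holds 8 libraries from HEK293T cells, an immortalised line of human embryonic kidney origin that expresses a viral large T antigen: 2 clip and 2 input libraries for TIA1, and 2 clip and 2 input libraries for RBFOX2. All cells received 600 mJ of ultraviolet light, the clip libraries were made with an antibody to the HA tag, and the inputs had no antibody; the labels do not say which protein carried the tag or how it was expressed. The labels are not uniform: the protocols write HEK293 and, for every library, name beads bound to TIA1, and the replicates appear both as biological and as technical.

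Each list joins both replicates of its protein, so values per library, sequencing depth and replicate spread are unknown. Each peak carries the authors' own log2 fold, read as clip over input, and −log10 p. No deposited peak has a log2 fold or a −log10 p below 3. RNA level as such is not in the lists, so the labelled cell type could not be checked against marker genes, and a gene without a peak may be bound below these limits.

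High mobility group proteins are small, abundant chromatin proteins that are not histones. HMGN proteins bind the nucleosome itself and loosen compact chromatin, HMGB proteins bend DNA through HMG boxes, and HMGA proteins bind the minor groove of AT-rich DNA through AT hooks. TIA1 favours uridine-rich stretches and takes part in splicing, translational repression and the assembly of stress granules. RBFOX2 controls alternative splicing and recognises GCAUG.

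The letters that these proteins are known to prefer were looked up in 1 coding transcript per gene from GENCODE 29, which is annotated on GRCh38. The peaks are in hg19 and were not placed on these transcripts, so the sequences describe the RNAs and are not peak sequences. The longest run of T (U in the RNA) of each member is shown in capitals, with its flanking bases in lower case, because such runs are what TIA1 is known to favour.

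HMGN1, 3′ untranslated region: gtgtaaatgcTTTTTTTTaagaggtgaa
HMGN2, 3′ untranslated region: gttttacTTTTTTTTTTTTTTTaaaagcta
HMGB1, 3′ untranslated region: tctagcgcagTTTTTTTTTTcttgtctata
HMGB2, 3′ untranslated region: tatttaatggTTTTTTTaatttcttgt
HMGA1, 5′ untranslated region: cggtggcttcTTTTTTTTatatctataa

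The run was 15 bases long in HMGN2, 10 in HMGB1, 8 in HMGN1, 8 in HMGA1 and 7 in HMGB2, against a median of 6 over 19511 protein-coding genes. TTTTT was counted on the transcript strand, and every overlapping match counted. A longer run, such as the 15 bases in HMGN2, thus gave several matches, and the counts are not numbers of separate runs. TTTTT occurred 17 times in HMGN2, 16 times in HMGN1, 51 times in HMGB1, 12 times in HMGB2 and 9 times in HMGA1. Per kb of transcript that was 14.3 in HMGN2, 11.6 in HMGN1, 9.30 in HMGB1, 6.35 in HMGB2 and 4.17 in HMGA1, against a median of 2.11 over all genes. The HMGN2 density exceeded that of 99.1% of genes, and the HMGA1 density that of 71.1%. All 17 matches of HMGN2 and all 16 of HMGN1 lay in the 3′ untranslated region, as did 49 of 51 in HMGB1 and 10 of 12 in HMGB2. In HMGA1 only 3 of 9 lay there and 6 lay in the 5′ untranslated region. TTTTT is common, with at least 1 match in 81.9% of all transcripts and in 63.3 to 97.9% of those within 10% of a member's length.

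GCATG, the DNA spelling of the RBFOX element, was found on the transcript strand in HMGB1 and HMGA1 and not in the chosen transcripts of HMGN1, HMGN2 and HMGB2. Over all genes 84.6% of transcripts held it, but those 3 are short, with 1383, 1191 and 1889 bases against a median of 2746. Among transcripts within 10% of each member's length the share was 70.9% for HMGN1, 64.0% for HMGN2, 80.2% for HMGB2, 98.8% for HMGB1 and 83.2% for HMGA1. The 5 matches of HMGB1 and the match of HMGA1 were all in 3′ untranslated regions. The first HMGB1 match and the HMGA1 match are shown with the element in capitals, as examples of the element in members.

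HMGB1, GCATG: ttgtaaattgGCATGgaaatttaaa
HMGA1, GCATG: aggggctgggGCATGgcaggctggg

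HMGB1 carried 0.912 GCATG matches per kb and HMGA1 0.463, against a median of 0.835 over all genes. Introns were not searched, and most RBFOX binding that regulates splicing is known from introns.

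**Figure D1:**
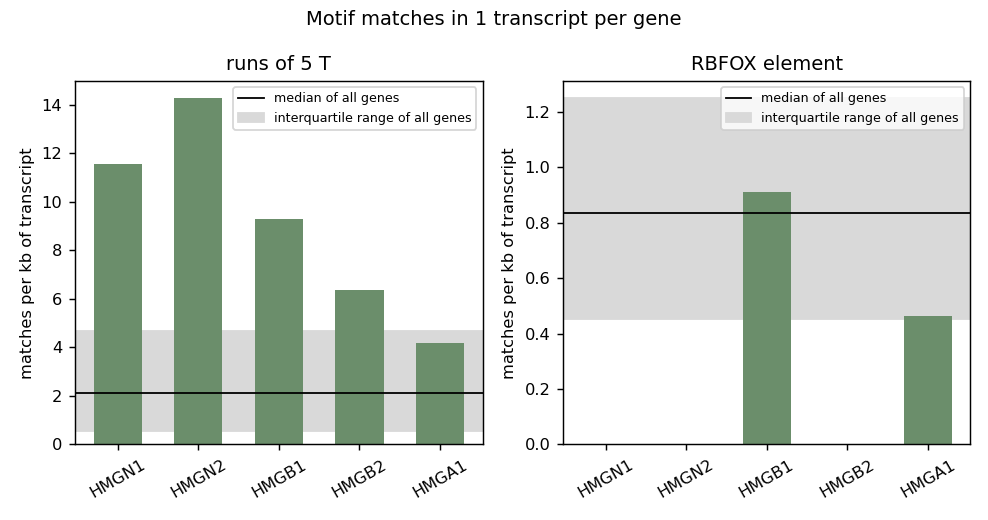
Matches per kb of transcript for runs of 5 T (left) and the RBFOX element (right) in 1 coding transcript per gene, with the median and interquartile range of 19511 genes as a line and a grey band. Overlapping TTTTT matches within a longer run are each counted on the left. The TTTTT densities of HMGN2 (14.3), HMGN1 (11.6), HMGB1 (9.30) and HMGB2 (6.35) lie above the band, and only HMGB1 and HMGA1 have the RBFOX element.

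TIA1 peaks were listed in all 5 genes, with 6 in HMGN1, 4 in HMGN2, 3 in HMGB1, 2 in HMGB2 and 1 in HMGA1. RBFOX2 peaks were listed in HMGN1 and HMGB1, with 1 each, and none was listed in HMGN2, HMGB2 or HMGA1. The members made up 0.498% of all TIA1 peaks and 0.0473% of all RBFOX2 peaks. They covered 442 bases for TIA1 and 183 bases for RBFOX2. No peak of either list lay on the opposite strand of any span, and none was added when the spans were widened by 5 kb on each side.

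The folds of the members were moderate for their lists. TIA1 member peaks had log2 folds from 3.02 to 3.96 with a median of 3.39, against a median of 3.36 in the whole TIA1 list, and 9 of 16 lay above that list median. The RBFOX2 member peaks had log2 folds of 3.70 and 3.32, against a median of 3.48 in the whole RBFOX2 list. No member peak reached a log2 fold of 4, a level that 9.21% of all TIA1 peaks and 19.3% of all RBFOX2 peaks reached. The highest fold of the 16, in HMGN1, equals 15.5-fold on the linear scale.

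The −log10 p of the pooled members was high for the TIA1 list, with a median of 27.1 against 7.36 in the whole list, and 14 of 16 lay above that list median. The genes differed, with medians of 400 in HMGN2, 30.5 in HMGN1 and 23.9 in HMGB2. HMGB1, at 8.61, was near the list median, and the peak of HMGA1, at 4.01, was below it. The 4 peaks of HMGN2 stood at 400, where 2.02% of all TIA1 peaks stood. Neither RBFOX2 member peak stood at 400, where 0.686% of all RBFOX2 peaks did. Such a p reflects the number of reads as well as the fold, and read numbers are not in the lists. The next highest −log10 p below 400 was 86.8 for TIA1 and 83.8 for RBFOX2. The value 400 was thus read as an assigned value and not as a measured −log10 p. No order in −log10 p can be read among peaks at 400.

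**Figure D2:**
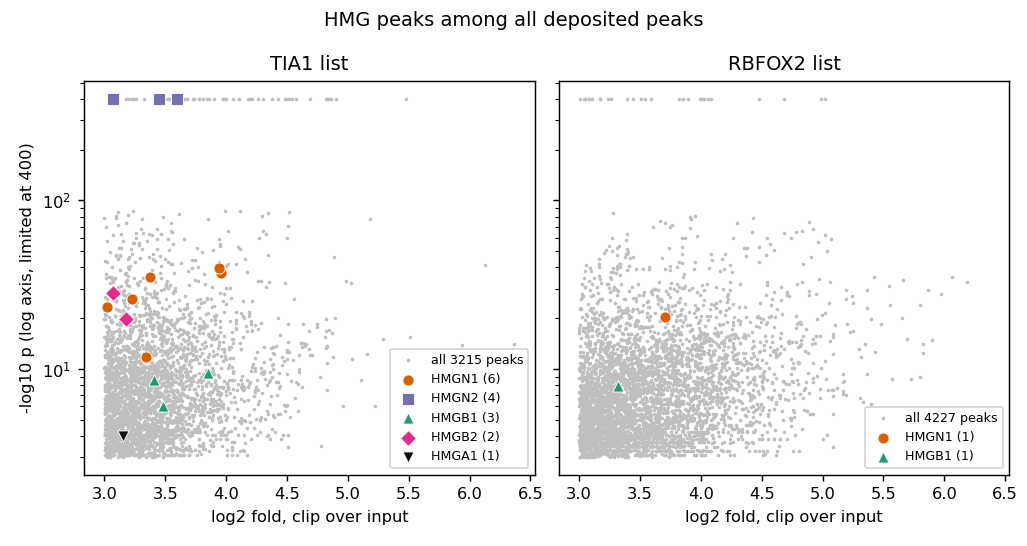
Log2 fold (x axis) and −log10 p (y axis, log scale, highest value 400, read as assigned) of every deposited peak in grey, with member peaks coloured by gene, TIA1 on the left and RBFOX2 on the right. The HMGN2 squares sit at 400 with log2 folds from 3.07 to 3.60, of which 3.44 and 3.45 overlie each other, and the HMGA1 triangle sits at 4.01 near the lower limit.

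HMGN1 and HMGN2 are the closely related nucleosome-binding members. The HMGN2 span runs from 26798 to 26804 kb on the plus strand of chromosome 1. Its 4 TIA1 peaks formed an unbroken run of 109 bases, chr1:26798987-26799095. The first, 26798987 to 26799060, was 74 bases wide with a log2 fold of 3.44. The peaks at 26799061 to 26799064 and 26799065 to 26799069, 4 and 5 bases wide, had log2 folds of 3.60 and 3.45. The last, 26799070 to 26799095, had the lowest log2 fold, 3.07.

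At the −log10 p of 400 shared by 65 TIA1 peaks, the log2 fold ran from 3.03 to 5.48 with a median of 3.77, and every HMGN2 peak was below that median. By fold the HMGN2 peaks ranked 43, 52, 54 and 63 among those 65. Peaks whose gap was at most 50 bases were joined into sites, which left 2413 TIA1 sites, of which 20 reached 400. HMGN2 supplied 1 of those 20. No RBFOX2 peak was listed in the HMGN2 span or within 100 kb of it on the strand. The run lay 1.02 to 1.08 kb from the 5′ edge of a 6 kb span, as measured to the middle of each peak, and the 3′ part of the span held no peak. The 17 TTTTT matches of the HMGN2 transcript are in its 3′ untranslated region. The peaks were not placed on that transcript, so whether they hold runs of T is unknown.

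The HMGN1 span runs from 40714 to 40722 kb on the minus strand of chromosome 21. It held 6 TIA1 peaks, of which 5 abutted one another over 156 bases, chr21:40720829-40720984. In order of transcription, from high to low coordinates, the log2 folds of these 5 were 3.34, 3.94, 3.96, 3.38 and 3.02, so the middle of the run was highest. Their −log10 p in the same order was 11.7, 39.7, 36.9, 34.9 and 23.4, lowest at the 5′ end of the run. The peak with the highest −log10 p, 40720878 to 40720940, was 63 bases wide, and the peak with the highest fold, 40720863 to 40720877, was 15 bases wide.

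The sixth HMGN1 peak was a 4-base peak at 40720501 to 40720504, separated from the run by 324 bases on its 3′ side. It had a log2 fold of 3.23 and a −log10 p of 26.1. A site with 5 or more peaks was uncommon in the TIA1 list, with 24 of 2413 joined sites, or 0.995%. The HMGN1 peaks lay 1.04 to 1.50 kb from the 5′ edge of an 8 kb span.

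HMGN1 was the member where the lists met. Its RBFOX2 peak, 40720934 to 40721004, was 71 bases wide with a log2 fold of 3.70 and a −log10 p of 20.5. It shared 44 bases with the TIA1 peak at 40720941 to 40720984, which lay wholly inside it, and 7 bases with the TIA1 peak at 40720878 to 40720940. The TIA1 log2 folds there were 3.34 and 3.94, one below and one above the RBFOX2 value of 3.70. Each fold is relative to the inputs of its own protein, so the values are set side by side without a test. The RBFOX2 peak extended 5′ of the TIA1 run, and 4 of the 6 TIA1 peaks of HMGN1 did not touch it.

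Over the 5 genes 2 of 16 TIA1 peaks overlapped an RBFOX2 peak by at least 1 base on the strand, or 12.5%, against 24.0% of the whole TIA1 list. Of the RBFOX2 peaks 1 of 2 overlapped a TIA1 peak, against 21.7% of the whole RBFOX2 list. So few peaks do not set the members apart from their lists in this respect.

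**Figure D3:**
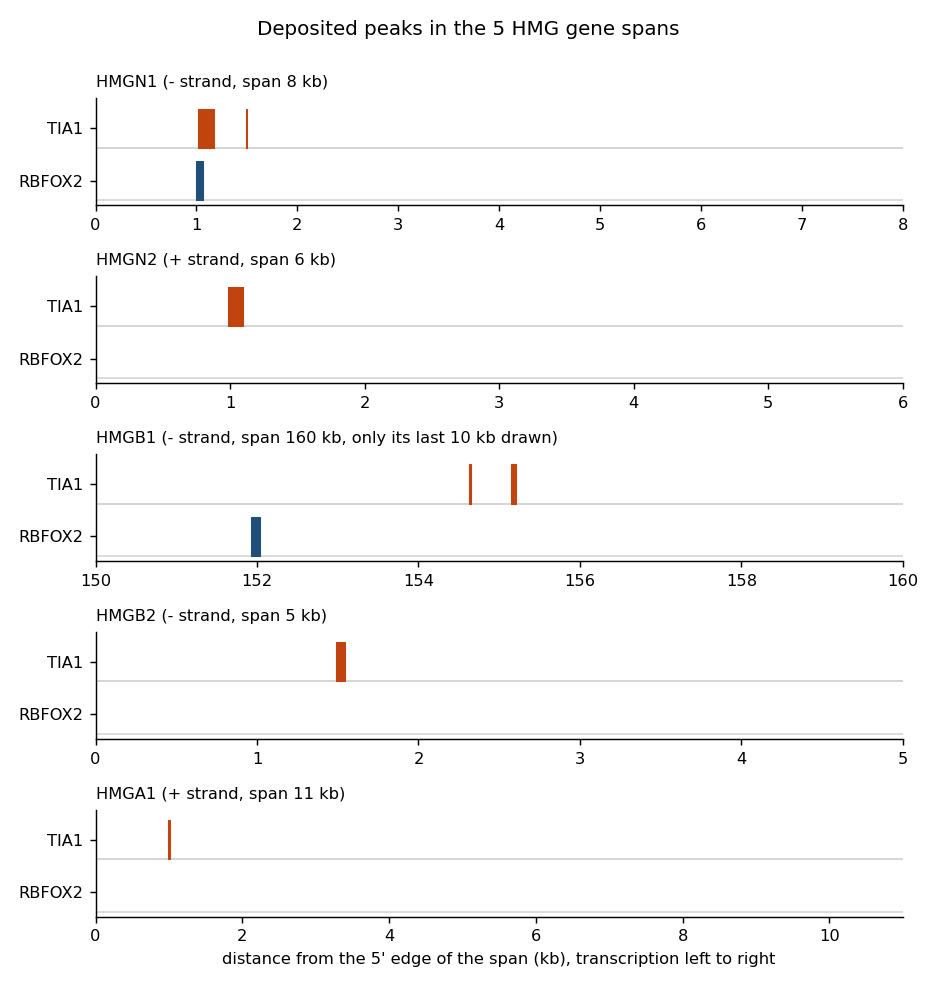
Peaks of both lists along each span, as distance from its 5′ edge in kb with transcription from left to right; TIA1 is drawn above RBFOX2, and box height has no meaning. TIA1 peaks of HMGN1, HMGN2, HMGB2 and HMGA1 lie 1.00 to 1.53 kb from the 5′ edge, the RBFOX2 peak of HMGN1 overlaps the TIA1 run, and in HMGB1 the RBFOX2 peak lies 5′ of the TIA1 peaks. The spans are wider than the transcripts, so the distances are to span edges and not to transcript starts.

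HMGB1, which besides its role in chromatin acts as an alarm signal when it leaves the cell, spans 31032 to 31192 kb on the minus strand of chromosome 13. Its 3 TIA1 peaks formed a pair of sites. At 31036796 to 31036826 the log2 fold was 3.48 and the −log10 p 6.01. The abutting peak at 31036827 to 31036849 had 3.41 and 8.61. A gap of 494 bases separated them from the peak at 31037344 to 31037373 on the 5′ side, whose log2 fold of 3.85 was the highest of the gene and whose −log10 p was 9.42. All 3 exceeded the median fold of the TIA1 list, and the −log10 p of 2 of 3 exceeded its median of 7.36.

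The RBFOX2 peak of HMGB1, 31039958 to 31040069, was the widest of the 18 member peaks at 112 bases, with a log2 fold of 3.32 and a −log10 p of 7.97. It lay 5′ of the TIA1 peaks, with 2584 bases between it and the nearest of them, so the lists did not meet in this gene. Measured to the middle of each peak, the peaks of HMGB1 lay 4.81 to 8.01 kb from the 3′ edge of a 160 kb span. From the 5′ edge, used for the other genes, they lay 152.0 to 155.2 kb. In GENCODE 29, 5 of 6 coding HMGB1 transcripts of the basic set extend over less than 10 kb of genome and the other over 158.9 kb. The distance to an edge of the span thus does not place these peaks within the shorter transcripts.

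HMGB2, the paralogue of HMGB1 that is known for high expression in dividing cells, spans 174252 to 174257 kb on the minus strand of chromosome 4. Its TIA1 peaks abutted over 53 bases, chr4:174255456-174255508. The 3′ peak of the pair, 174255456 to 174255484, gave a log2 fold of 3.07 with a −log10 p of 28.1. The 5′ peak, 174255485 to 174255508, gave 3.17 with 19.7. Both folds were below the median of the TIA1 list while both −log10 p values were above it, the reverse of the HMGB1 peak at 31036796 to 31036826. No RBFOX2 peak was listed there.

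HMGA1, an AT-hook protein that is abundant in embryonic and tumour cells, spans 34204 to 34215 kb on the plus strand of chromosome 6. Its TIA1 peak, 34204986 to 34205021, was 36 bases wide and had a log2 fold of 3.15. Its −log10 p, 4.01, was the lowest of the 18 member peaks, and 13.5% of TIA1 peaks were lower. The peak lay 1.00 kb from the 5′ edge of an 11 kb span, and no RBFOX2 peak was listed in the span.

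**Figure D4:**
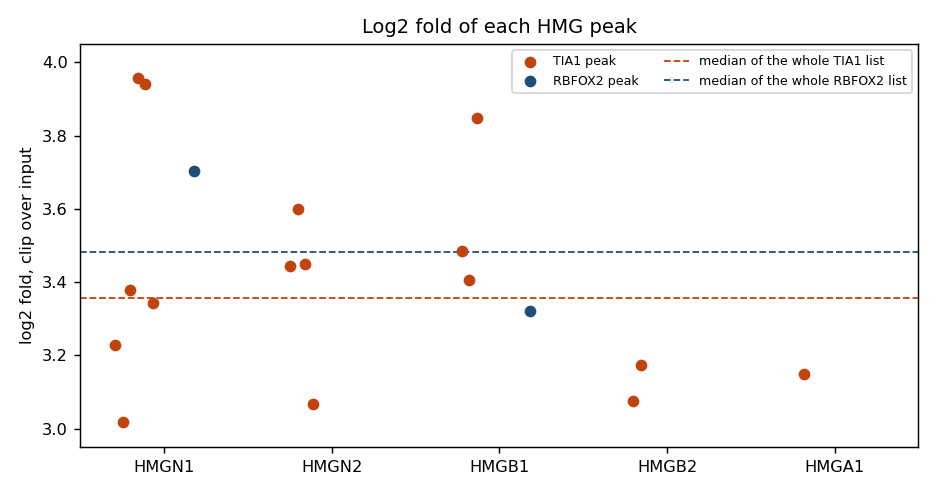
Log2 fold of each member peak by gene, TIA1 left of RBFOX2 within a gene, with dashed lines at the medians of the whole lists (3.36 for TIA1 and 3.48 for RBFOX2). Points of a gene run from low to high coordinate; HMGN1 ranges most widely, from 3.02 to 3.96 in TIA1, and both HMGB2 points and the HMGA1 point lie under both lines.

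Member peaks of TIA1 were narrow and often abutted. Their width ran from 4 to 74 bases with a median of 25, against 61 in the whole TIA1 list. The width is that of single peaks: joined, the runs covered 156 bases in HMGN1 and 109 in HMGN2. Narrow peaks were not particular to the members, since the 65 TIA1 peaks at a −log10 p of 400 had a median width of 16. Of the 16, 5 were under 20 bases wide, against 18.8% of the list, and those 5 were all in HMGN1 and HMGN2. An abutting neighbour was present for 13 of 16, against 35.3% of the list. These 13 are pieces of a single joined site in each of HMGN1 (5 peaks), HMGN2 (4), HMGB1 (2) and HMGB2 (2), so they are not independent. The other member sites, in HMGN1, HMGB1 and HMGA1, held 1 peak each. Of the 2413 joined TIA1 sites, 22.1% held at least 2 peaks. The RBFOX2 member peaks were 71 and 112 bases wide, against a median of 70 in the whole RBFOX2 list, neither abutted another, where 43.4% of that list did, and neither was under 20 bases, where 9.79% were.

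Peaks of 1 gene come from the same RNA and are not independent, so the genes were also counted as loci, with peaks within 10 kb on the strand pooled. The TIA1 list then held 1863 loci, of which 67.8% had 1 peak. The HMGN1 locus had 6 peaks, a number that 3.33% of loci reached. HMGN2 had 4 (8.00% of loci reached it), HMGB1 had 3 (14.1%), HMGB2 had 2 (32.2%) and HMGA1 had 1. In the RBFOX2 list HMGN1 and HMGB1 were loci of 1 peak, like 60.3% of 2042 loci.

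Peaks near the spans were also looked up. The same was not counted for other loci of the lists, so it is not known whether few neighbours are usual. Within 100 kb outside a span, on the strand, the only peak was a TIA1 peak 28.4 kb on the 3′ side of HMGN1, at 40685465 to 40685551, with a log2 fold of 4.12 and a −log10 p of 8.60.

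Pseudogenes are named after each of these genes, in very unequal numbers. GENCODE 29 names 48 pseudogenes after HMGB1, 36 after HMGN2, 31 after HMGN1, 7 after HMGA1 and 1 after HMGB2. Reads that match a gene and its copies equally can be lost or placed at either, and no source used here says how they were assigned, so the values of HMGB1, HMGN2 and HMGN1 are uncertain to that extent. The effect was not tested. On the same strand the annotation places the pseudogenes RBM22P2 and MFAP1P1 within HMGB1 and the microRNA gene MIR6835 within HMGA1.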

How the data were processed

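The authors deposited 1 peak list per protein without a header, with the position and strand of each peak beside a −log10 p and a log2 fold. The units of the deposited −log10 p and log2 columns were inferred from their ranges. Per the submitters' processing notes the build was hg19 and the tools included STAR 2.4.0i, SAMtools 1.6, cutadapt 1.14 and UMI-tools 1.0.0, whose roles are not stated. The sources used here do not name a peak caller. Each list is named in the sample descriptions of all 4 libraries of its protein.

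Peaks were assigned to hg19 spans by strand in Python 3.11.15 with pandas 2.3.3 and numpy 2.4.6, and coordinates are printed 1-based. No test was made: the genes and the measures were chosen with earlier results of these data known, and the lists hold no value per replicate. Overlap meant at least 1 shared base on the same strand, sites joined peaks within 50 bases, and a joined site took the highest values of its peaks. The peaks given singly were all those of the 5 genes and the nearest peaks outside the spans within 100 kb. The counting was tested on simulated data with planted peaks.

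No hg19 genome or annotation was used, so exons, introns and peak sequences were not analysed here, nor were further genes of these families. GENCODE 29 transcripts (GRCh38) gave motifs, from the principal coding transcript with the longest coding sequence, and the names of pseudogenes, the genes that overlap members and the extents of coding transcripts, all within that build; all 5 genes matched. Alternatives covered strand, span edges, thresholds, joining, overlap rules, the gene with most peaks and weighting by width. Leaving out peaks under 20 bases was added after seeing the data.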

Additional observations from a re-analysis of the deposited data

How the results depend on the processing

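The counts of 16 TIA1 and 2 RBFOX2 peaks were the same on both strands and with spans widened by 5 kb, and were 15 and 2 with a −log10 p of at least 5, which removed the HMGA1 peak. A log2 fold of at least 4 left 0 TIA1 and 0 RBFOX2 peaks, and so 0 overlaps in either list and no median, because every member lies below it. Joining peaks within 50 bases left 7 TIA1 sites, of which 1 overlapped RBFOX2. Leaving out peaks under 20 bases, chosen after seeing the data, left 11 TIA1 peaks, with 3 in HMGN1 and 2 in HMGN2. Of the TIA1 peaks 1 overlapped RBFOX2 when at least 50% of each peak was required, and 5 when peaks within 100 bases were counted, all in HMGN1. The median TIA1 log2 fold of 3.39 became 3.41 with a −log10 p of at least 5, 3.38 without short peaks and 3.43 without HMGN1. The mean weighted by width was 3.45. With joined peaks the median was 3.48. Each joined site takes its highest fold, which by itself favours a higher median, and the median of all joined sites was not computed. For RBFOX2 the median of 3.51 over 2 peaks became 3.32 without HMGN1, which tied with HMGB1 for most peaks and comes first in the rule, and the weighted mean was 3.47. No paired analysis was possible because the lists merge the replicates of a protein, which also prevents leaving out a replicate. Depth is not known, so a gene without a peak cannot be read as unbound.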
